A study of Mus musculus with 8 samples.

Results

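Mast cells and basophils store histamine and proteases in granules and release them when IgE bound to their surface is cross-linked. A list of 9 genes used as markers of these cells was read in cultures of mouse bone marrow-derived dendritic cells (BMDC). The genes were taken by symbol from the 55487 genes of the count table: *Gata2*, *Cpa3*, *Mcpt8*, *Ms4a2*, *Fcer1a*, *Kit*, *Hdc*, *Il1rl1* and *Cma1*. All 9 were found. BMDC were grown from bone marrow of wild-type C57BL/6J female mice aged 6 to 8 weeks for 10 days with 20 ng/ml GM-CSF, a growth factor for myeloid cells. The control group held 4 libraries of BMDC that received no treatment. The second group, BMDC-fer, held 4 libraries of BMDC that had been kept for 4 h with human Jurkat T leukaemia cells and then sorted for cells that carried Jurkat material. The Jurkat cells had been killed by ferroptosis, an iron-dependent death by lipid peroxidation, with 0.5 µM of the GPX4 inhibitor ML162 for 14 h. The methods describe sorting for BMDC-fer and give none for the controls, so the co-culture, the uptake and the sort cannot be told apart. The study calls the 4 samples of a group independently collected, and the labels do not tie them to separate animals. In RNA read from many cells together, sorted or not, fewer cells of a type and less RNA per cell cannot be told apart either.

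GM-CSF cultures of bone marrow are mixed: beside dendritic cells and macrophages they can hold granulocytes and their precursors, and mast cells and basophils arise from the same marrow progenitors. *Gata2* encodes a transcription factor that these lineages need and that binds GATA sequences in many of their genes. *Kit* encodes the receptor for stem cell factor, on which mast cells depend, and *Il1rl1* encodes ST2, the receptor for IL-33. *Fcer1a* and *Ms4a2* encode the IgE-binding alpha chain and the beta chain of the high-affinity IgE receptor. *Cpa3* (carboxypeptidase A3), *Cma1* (mast cell chymase) and *Mcpt8* (a basophil protease) encode granule enzymes, and *Hdc* encodes histidine decarboxylase, which makes histamine.

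Sequences in front of the start sites are shown for the 4 members in which GATA words were most numerous or which encode the IgE receptor and the granule carboxypeptidase. RefSeq promoter windows of build GRCm38.p6, from 250 bases before to 50 bases after a start site, matched 9 of 9 members with 12 windows. The words searched on both strands were AGATAA, its variant ending in G (AGATAG), and likewise TGATAA with its variant TGATAG. They were found in 7 of the 12 windows, belonging to 6 members (*Cpa3*, *Ms4a2*, *Fcer1a*, *Hdc*, *Il1rl1* and *Cma1*), and in 29.8% of all 32851 windows of the table. Below are the 250 bases before the start, 5′ to 3′ on the strand of the gene, for *Cpa3* (chr3:20242182-20242431, minus strand), *Ms4a2* (chr19:11623720-11623969, minus strand), *Fcer1a* (chr1:173227230-173227479, minus strand) and the first of 2 windows of *Il1rl1* (chr1:40429320-40429569, plus strand). Capitals mark the GATA words, read on either strand.
Cpa3: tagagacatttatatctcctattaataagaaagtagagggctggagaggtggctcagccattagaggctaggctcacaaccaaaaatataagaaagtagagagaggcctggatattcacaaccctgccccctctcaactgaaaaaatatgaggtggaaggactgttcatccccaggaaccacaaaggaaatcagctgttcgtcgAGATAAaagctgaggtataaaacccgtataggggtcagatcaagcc
Ms4a2: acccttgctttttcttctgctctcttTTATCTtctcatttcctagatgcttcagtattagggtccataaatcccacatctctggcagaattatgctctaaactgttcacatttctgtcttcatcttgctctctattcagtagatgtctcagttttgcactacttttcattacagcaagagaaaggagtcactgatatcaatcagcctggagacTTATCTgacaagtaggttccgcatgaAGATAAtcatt
Fcer1a: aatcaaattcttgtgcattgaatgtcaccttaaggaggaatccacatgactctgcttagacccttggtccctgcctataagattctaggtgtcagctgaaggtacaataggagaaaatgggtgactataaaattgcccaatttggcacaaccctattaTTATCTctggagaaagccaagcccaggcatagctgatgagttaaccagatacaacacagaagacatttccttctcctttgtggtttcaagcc
Il1rl1: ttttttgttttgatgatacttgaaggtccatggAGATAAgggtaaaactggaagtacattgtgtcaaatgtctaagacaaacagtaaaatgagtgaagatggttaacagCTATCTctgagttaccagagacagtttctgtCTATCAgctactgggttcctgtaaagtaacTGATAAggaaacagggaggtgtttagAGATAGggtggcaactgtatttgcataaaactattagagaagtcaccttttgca

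*Il1rl1* held 5 of these words in its first window, the first base of the nearest lying 54 bases before the start, and 1 in its second. *Ms4a2* held 3, with 1 starting 11 bases before the start, while *Cpa3* and *Fcer1a* held 1 each, at 46 and 92 bases before the start. No such word was in the windows of *Gata2*, *Mcpt8* or *Kit*. The E-box word CACGTG and its variant CATGTG, which MITF-type factors can bind, were in 20.4% of all windows and in 1 member, *Fcer1a*. TATAAA was in 13.6% of all windows and in *Cpa3* and *Fcer1a*. A matching word is a description of the sequence, and binding was not measured.

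The libraries held 39326672 to 50532209 counts each. Levels are given as CPM, the counts of a gene divided by the size of its library, with library sizes scaled by the trimmed mean of M-values (TMM). Of 15411 genes that passed the filter on low counts, 534 rose in BMDC-fer (3.47%) and 911 fell (5.91%) in the edgeR quasi-likelihood test, where a gene was called at a Benjamini-Hochberg adjusted p of 0.05 or less and a log2 fold change of at least 0.58 in size. The dendritic cell label was read against markers: *Itgax*, which encodes CD11c, stood at 1111 ± 294 CPM in BMDC and 1033 ± 247 in BMDC-fer (SD, n = 4 each), and the macrophage gene *Csf1r* at 866 ± 153 and 1145 ± 66.4 CPM (adjusted p = 0.111 in edgeR). *Itgax* had the smallest difference of the 7 dendritic cell markers read, the log2 fold changes of the others lying between -3.10 and -0.26. All libraries were of wild-type cells, so no targeted gene could check the labels.

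The mast cell and basophil genes were a minor part of these cultures. The CPM of the 9 genes summed to between 38.2 and 122 in the BMDC libraries and between 15.3 and 42.9 in the BMDC-fer libraries. *Il1rl1*, *Kit* and *Gata2* made up most of this sum, averaging 22.0, 21.3 and 19.4 CPM in BMDC, where the mean sum was 69.5. *Mcpt8*, *Fcer1a*, *Ms4a2* and *Cma1* averaged 0.445, 0.122, 0.113 and 0.0670 CPM there. Whether the sum follows the number of mast cells or basophils was not tested, nor whether the 9 genes are confined to these cells in the cultures. The filter was passed by 5 of the genes (*Gata2*, *Cpa3*, *Kit*, *Hdc* and *Il1rl1*), and 4 (*Mcpt8*, *Ms4a2*, *Fcer1a* and *Cma1*) were at low counts, under 0.236 CPM in too many libraries. All 9 had a log2 fold change below 0 in BMDC-fer, and none was called: 0 of the 5 that passed, with 5.91% of all tested genes falling, and 0 of the 4 low ones in the fit without the filter, in which 2.86% of 28787 genes fell. At an unadjusted p under 0.05 in the edgeR fit, 3 of the 5 that passed were lower (*Gata2*, *Cpa3* and *Hdc*), against 16.2% of tested genes. The 4 low ones were also under 0.05 unadjusted in the fit without the filter, in which 11.1% of genes were lower at that level. DESeq2 called 3 members as lower, *Gata2* (adjusted p = 0.0315), *Cpa3* (0.00585) and *Mcpt8* (0.00585), and gave no adjusted p for *Ms4a2*, *Fcer1a* and *Cma1*; it called 8.39% of the genes to which it gave an adjusted p as lower. With the replicate number as a further term it called 6 members, against 9.57% of genes.

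**Figure D1:**
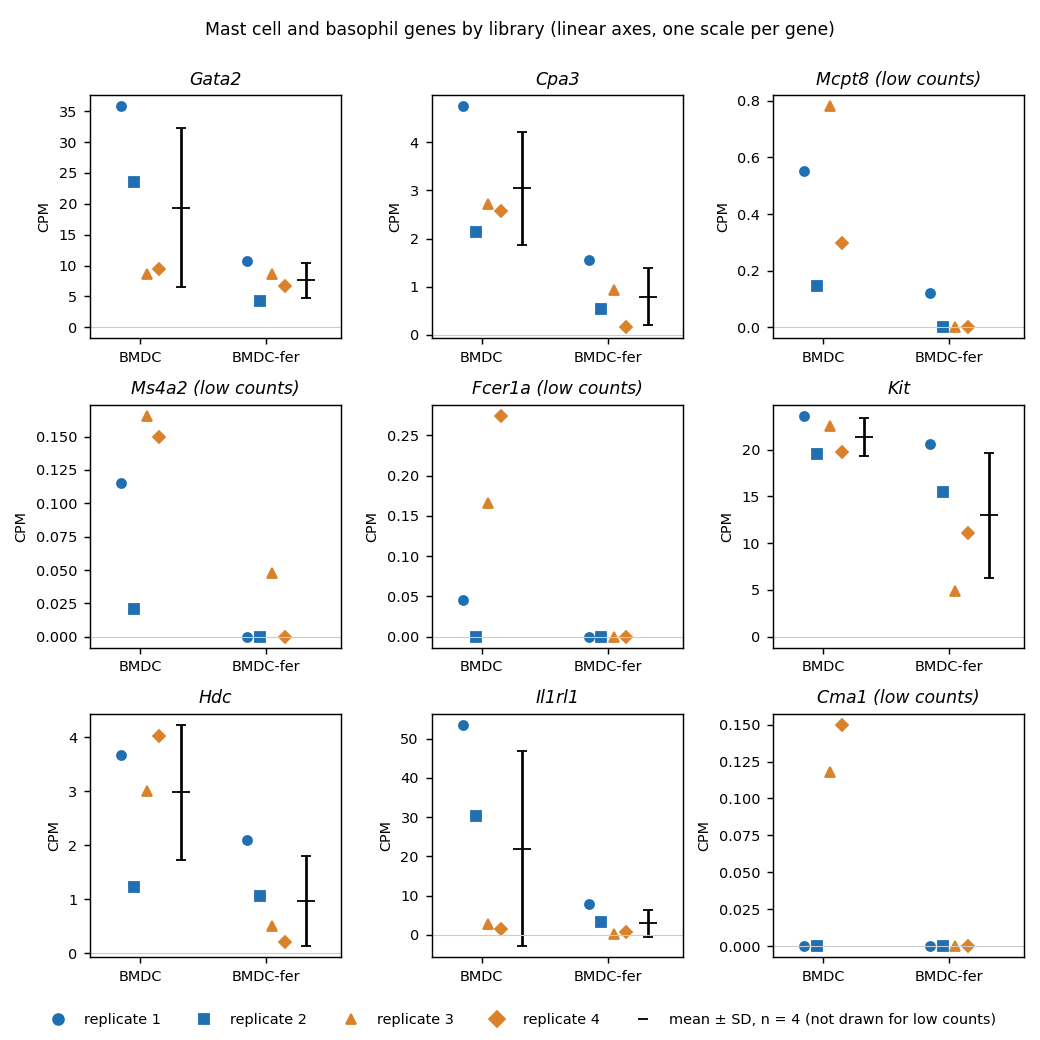
Each panel plots 1 gene, with CPM on a linear axis of its own and a point for each of the 4 BMDC and 4 BMDC-fer libraries, shaped by replicate number. Bars are mean ± SD (n = 4) and are not drawn for genes at low counts. All *Cpa3* and *Mcpt8* points of BMDC-fer lie below those of BMDC, for *Mcpt8* at the nearest by 0.121 against 0.147 CPM. *Il1rl1* spans 1.5 to 53.4 CPM within BMDC alone.

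Same-numbered BMDC and BMDC-fer libraries deviated from their group means together, with correlations over genes of 0.313 to 0.446 in all 4 pairs. Libraries of replicates 3 and 4 did so as much across numbers (0.380 and 0.343), those of replicates 1 and 2 less (0.186 and 0.287), and only 2 of the 4 BMDC libraries correlated best with their own number, so the libraries fell into replicates 1 and 2 and replicates 3 and 4 as much as into numbered pairs. With the replicate number as a block in edgeR, 8.13% of tested genes fell, and 2 of the 5 genes that passed did (*Cpa3* and *Il1rl1*), as did *Mcpt8* among the low ones (4.94% of genes fell with the block and no filter). For the members, both values are given below wherever the block changed a call.

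Levels per length, as CPM divided by exon length in kilobases (RPKM), ordered the genes in BMDC as *Gata2* (3.59 ± 2.39, SD, n = 4), *Il1rl1* (3.19 ± 3.60), *Kit* (2.40 ± 0.231) and *Cpa3* (2.00 ± 0.768). The ranges of these 4 overlapped, so their order is not resolved. *Hdc* (0.466 ± 0.195) and *Mcpt8* (0.446 ± 0.280) followed by mean, and no *Hdc* library reached the lowest *Cpa3* library (0.629 against 1.40 RPKM). *Il1rl1* was below *Hdc* in BMDC replicate 3 (0.388 against 0.470 RPKM) and replicate 4 (0.217 against 0.629). *Fcer1a*, *Cma1* and *Ms4a2* were lowest, at means of 0.122, 0.0615 and 0.0401 RPKM. In BMDC-fer the order by mean RPKM was *Kit* (1.46 ± 0.750), *Gata2* (1.41 ± 0.515), *Cpa3* (0.525 ± 0.395), *Il1rl1* (0.438 ± 0.50) and *Hdc* (0.151 ± 0.131).

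*Gata2* (ENSMUSG00000015053, chr6:88193891-88207032, plus strand, GRCm38) is the transcription factor of the list. It was read at 35.8, 23.6, 8.63 and 9.50 CPM in BMDC replicates 1 to 4 and at 10.7, 4.23, 8.67 and 6.70 CPM in BMDC-fer replicates 1 to 4. BMDC replicates 1 and 2 stood above all other libraries, and the groups overlapped. The means were 19.4 ± 12.9 and 7.59 ± 2.78 CPM (SD, n = 4 each). The log2 fold change was -1.35 ± 0.49 (SE), with an adjusted p of 0.105 in edgeR. A two-sided exact permutation test on the log2(CPM + 0.05) scale gave p = 0.143, where the smallest p for 4 against 4 is 0.0286.

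*Cpa3* (ENSMUSG00000001865, chr3:20215620-20242181, minus strand) was the only member above the filter whose groups did not overlap; 11.6% of tested genes were lower in this way. Its CPM was 4.75, 2.13, 2.72 and 2.57 in BMDC and 1.56, 0.539, 0.934 and 0.157 in BMDC-fer, in replicate order. BMDC-fer replicate 4, with 6 reads, was the lowest library and BMDC replicate 1, with 206, the highest. The means of 3.04 ± 1.16 and 0.797 ± 0.599 CPM differed by a log2 fold change of -1.92 ± 0.58 (SE), with an adjusted p of 0.0646 in edgeR. With the replicate block the gene was called (-2.13 ± 0.43, adjusted p = 0.0261 in edgeR), and it was also called when BMDC-fer replicate 1 was left out (adjusted p = 0.0445). The exact permutation p was 0.0286, the smallest this design gives.

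*Hdc* (ENSMUSG00000027360, chr2:126593667-126619299, minus strand) was at 3.66, 1.22, 3.00 and 4.02 CPM in BMDC and at 2.10, 1.05, 0.503 and 0.209 CPM in BMDC-fer. BMDC replicate 2 lay below BMDC-fer replicate 1, so the groups overlapped. The log2 fold change was -1.61 ± 0.64 (SE) with an adjusted p of 0.134 in edgeR, and the exact permutation p was 0.0571.

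*Kit* (ENSMUSG00000005672, chr5:75574916-75656722, plus strand) was the steadiest member in BMDC, at 23.6, 19.5, 22.5 and 19.7 CPM. In BMDC-fer it spread from 4.84 CPM in replicate 3 and 11.1 in replicate 4 to 15.5 in replicate 2 and 20.6 in replicate 1. Only BMDC-fer replicate 1 reached into the range of BMDC. The means were 21.3 ± 2.06 and 13 ± 6.68 CPM, a log2 fold change of -0.71 ± 0.37 (SE) with an adjusted p of 0.224 in edgeR and an exact permutation p of 0.0857.

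*Il1rl1* (ENSMUSG00000026069, chr1:40429570-40465415, plus strand) varied most among BMDC libraries of the 5 genes above the filter. Its CPM was 53.4, 30.3, 2.67 and 1.5 in BMDC and 7.79, 3.28, 0.264 and 0.733 in BMDC-fer. Replicates 1 and 2 were above replicates 3 and 4 in both groups, and within every replicate number BMDC-fer was lower, at 14.6%, 10.8%, 9.86% and 49.0% of the BMDC level. Without a block the log2 fold change was -2.86 ± 1.28 (SE) with an adjusted p of 0.173 in edgeR. With the replicate block it was -2.64 ± 0.39 with an adjusted p of 0.0114, and the gene was called. The exact permutation test, which does not use the pairing, gave p = 0.200. Without a block the log2 fold change was -1.93 when BMDC replicate 1 was left out and -3.93 when BMDC-fer replicate 1 was. Counts per gene do not separate the transcripts that start at its 2 windows.

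**Figure D2:**
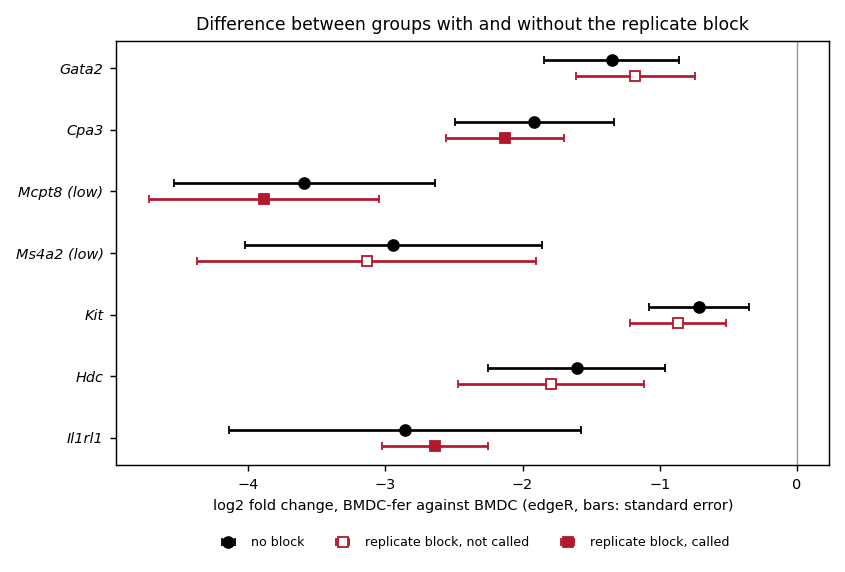
Log2 fold changes of BMDC-fer against BMDC with their standard errors from edgeR, from the fit without a block (circles) and from that with a replicate block (squares, filled where called). *Cpa3*, *Mcpt8* and *Il1rl1* were called with the block; for *Il1rl1* the standard error was 1.28 without it and 0.39 with it. *Fcer1a* and *Cma1* had 0 reads in all BMDC-fer libraries and are not drawn.

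The 4 genes at low counts were read as pooled counts, with intervals and limits that cover counting error only. *Mcpt8* (ENSMUSG00000022157, chr14:56082166-56085273, minus strand) had 24, 7, 33 and 12 reads in BMDC and 6, 0, 0 and 0 in BMDC-fer. All BMDC-fer libraries were below all BMDC libraries in CPM, but narrowly: BMDC-fer replicate 1 was at 0.121 CPM (6 reads) and BMDC replicate 2 at 0.147 (7 reads). The share of 11.6% of genes lower in this way covers genes above the filter, and none is given for low ones. The 76 reads against 6 made it 12.4-fold lower in BMDC-fer (95% exact binomial interval 5.46 to 35.0). In edgeR without the filter its log2 fold change was -3.59 ± 0.95 (SE) with an adjusted p of 0.0531, and with the replicate block -3.89 ± 0.84 with an adjusted p of 0.0161. In the same fit it was also called without BMDC replicate 2 (adjusted p = 0.0398) and without BMDC-fer replicate 1 (adjusted p = 0.0198). In the second case the fitted value moved to -7.22, with 0 reads left in BMDC-fer, and is no bound. The exact permutation p was 0.0286, which rests on the same narrow separation.

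The IgE receptor chains were near the limit of detection. *Ms4a2* (ENSMUSG00000024680, chr19:11615523-11623719, minus strand) had 5, 1, 7 and 6 reads in BMDC and 0, 0, 2 and 0 in BMDC-fer, a 9.33-fold lower pooled level with an interval of 2.25 to 82.6. Its groups overlapped, and the adjusted p was 0.153 in edgeR without the filter. *Fcer1a* (ENSMUSG00000005339, chr1:173221284-173227214, minus strand) had 2, 0, 7 and 11 reads in BMDC and 0 in every BMDC-fer library, at least 6.55-fold lower when the BMDC-fer group is set to 3 counts (adjusted p = 0.113 in edgeR without the filter). BMDC replicate 2 was at 0 as well, so the groups were not fully apart. The chymase gene *Cma1* (ENSMUSG00000022225, chr14:55941451-55944675, minus strand) had reads only in BMDC replicates 3 and 4, 5 and 6 of them, at least 3.60-fold lower in BMDC-fer on the same limit (adjusted p = 0.210). Of the 50-base words in its exons, 5.38% also occur in *Gm48934*, and 2.1% of those of *Ms4a2* occur in *Ms4a4b*. No exon of a member overlapped another gene.

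The size of the difference was not the same in all replicates. Compared within a replicate number, 6 genes were lower in BMDC-fer in all 4 replicates (*Cpa3*, *Mcpt8*, *Ms4a2*, *Kit*, *Hdc* and *Il1rl1*), *Gata2* and *Fcer1a* in 3 and *Cma1* in 2. Of the 5 above the filter these were 4, and 22.2% of all tested genes were lower in all 4. *Gata2* in BMDC-fer was at 30.0% and 17.9% of BMDC in replicates 1 and 2 and at 100.5% and 70.5% in replicates 3 and 4. *Kit* and *Hdc* went the other way: *Kit* was at 87.1%, 79.5%, 21.5% and 56.3% and *Hdc* at 57.4%, 86.2%, 16.7% and 5.21% in replicates 1 to 4.

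Replicates 1 and 2 stood apart from replicates 3 and 4 across the transcriptome, and an interaction of group with replicate pair passed an adjusted p of 0.05 in edgeR for 37.8% of tested genes. The split into these pairs was seen in the same data, so the p-values describe it and are no independent test. Among the members above the filter it passed for 2 of 5. The log2 fold change of *Gata2* was -1.98 in the first pair (replicates 1 and 2) and -0.24 in the second (replicates 3 and 4; adjusted p of the difference 0.0264). That of *Hdc* was -0.61 and -3.27 (0.0308). *Mcpt8*, at low counts, had -2.35 and -7.53 (0.0283), the second value resting on 0 reads in BMDC-fer replicates 3 and 4 and being no bound; without the filter the interaction passed for 22.2% of genes. For *Kit* (-0.25 and -1.41) the adjusted p was 0.0634, and 0.0243 in edgeR with the replicate block; for *Mcpt8* the block gave 0.0735. *Cpa3* (-1.68 and -2.25, adjusted p = 0.668) and *Il1rl1* (-2.91 and -2.09, adjusted p = 0.476) were not shown to differ between the pairs in the fit with the filter. These calls were fragile: that of *Gata2* was lost without BMDC replicate 1, 3 or 4 or BMDC-fer replicate 3, that of *Hdc* without BMDC replicate 3 or 4 or BMDC-fer replicate 1 or 4, and that of *Mcpt8* without BMDC replicate 2 or 3 or BMDC-fer replicate 1, 3 or 4. That of *Kit* was gained without BMDC-fer replicate 2 or 4. It was also gained in the edgeR interaction without the filter (adjusted p = 2.64e-07). *Il1rl1* passed in that fit as well (adjusted p = 0.0303), and *Cpa3* did not (0.466).

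**Figure D3:**
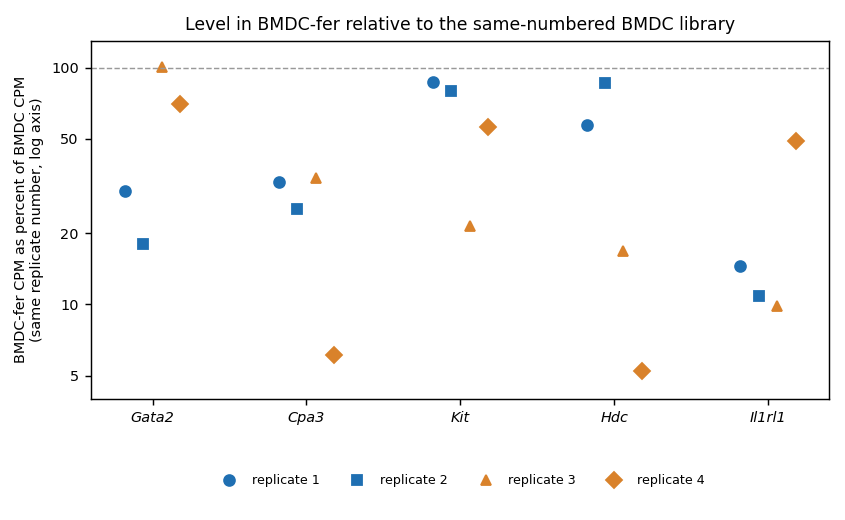
CPM in BMDC-fer as a percent of CPM in the same-numbered BMDC library, on a log axis, for the 5 genes above the filter, with a point for each replicate number. *Gata2* sits lowest in replicates 1 and 2, *Kit* and *Hdc* in replicates 3 and 4, and *Cpa3* and *Il1rl1* stay below 50% in all 4.

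The levels themselves split by replicate pair too, which is given as a description because the pairs were seen in these data. In BMDC, *Il1rl1* averaged 41.9 CPM in replicates 1 and 2 and 2.08 in replicates 3 and 4, a 20.1-fold difference, and *Gata2* averaged 29.7 and 9.07. *Kit* averaged 21.5 and 21.1 CPM in the same BMDC pairs. In BMDC-fer, *Gata2* averaged 7.49 and 7.69, whereas *Kit* averaged 18.0 and 7.97.

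The members also had profiles of their own over the 8 libraries. Likeness was measured as the root mean square difference of centred log2(CPM + 0.05) profiles, where 0 is the same shape. The closest pair of members was *Cpa3* and *Hdc* (0.605) and the farthest *Hdc* and *Il1rl1* (1.99). Of 15410 other genes, the nearest to *Gata2* were *Plekhg5* (0.186), *Esyt3* (0.191) and *Plagl1* (0.234), against a median of 0.989 over all genes. Those nearest to *Kit* were *Mipol1* (0.205), *Shroom3* (0.226) and *Mfsd6l* (0.244), with a median of 0.805. *Cpa3* was followed by *Haao* (0.433), *Spint2* (0.449) and *A530032D15Rik* (0.465), with a median of 1.41. *Hdc* was followed by *Ptprf* (0.301), *St3gal6* (0.468) and *Tpbg* (0.474), with a median of 1.36. The genes nearest to *Il1rl1* were the orphan receptor gene *Gpr82* (0.409) and the lectin genes *Cd209c* (0.460) and *Klrb1f* (0.515), with a median of 2.39.

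Around the members, 75 further genes of mast cell and basophil pathways were read in 7 lists; 59 passed the filter, 1 rose and 7 fell, where 3.47% and 5.91% of all tested genes did. With the replicate block 3 rose and 7 fell, where 4.85% and 8.13% did. The number called ranged from 4 to 10 when single libraries were left out, and was 4 without BMDC replicate 3 or BMDC-fer replicate 4 and 5 without BMDC replicate 4 or BMDC-fer replicate 1, 2 or 3. The median log2 fold change over all tested genes was 0.000687.

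Among transcription factors of these lineages, 11 of 12 were tested, 1 rose and 1 fell, with a median log2 fold change of 0.22. *Mitf*, a master factor of mast cells that macrophages express too, rose from 43.0 ± 12.1 to 73.5 ± 2.80 CPM (log2 fold change 0.77 ± 0.20, adjusted p = 0.0387 in edgeR). *Zfpm1*, which encodes the GATA cofactor FOG1, fell from 7.56 ± 0.396 to 5.0 ± 0.478 CPM (-0.60 ± 0.15, adjusted p = 0.0344). The most abundant was *Spi1*, the myeloid factor PU.1, at 393 and 500 CPM (adjusted p = 0.101).

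None of 9 further granule protease genes passed the filter, and *Mcpt2*, *Mcpt4* and *Mcpt9* had 0 reads in all 8 libraries, which allows up to 3 reads over them. Their summed CPM was 0.358 to 3.38 in BMDC and 0.0490 to 0.393 in BMDC-fer. In edgeR without the filter 3 fell, where 2.86% of all genes did, and they are named here after their values were seen. The tryptase gene *Tpsb2* had 14, 6, 21 and 32 reads in BMDC and 0, 1, 3 and 0 in BMDC-fer (log2 fold change -4.01, adjusted p = 0.0254). The basophil protease gene *Prss34* had 21, 5, 71 and 63 against 6, 0, 2 and 4 (-3.70, 0.0347). Cathepsin G (*Ctsg*), which neutrophil precursors make as well, had 14, 6, 43 and 18 against 6, 1, 2 and 2 (-2.84, 0.0419). Tryptase genes are close paralogs, and how reads shared between them were counted is not given in the sources used here.

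In the IgE receptor list, 16 of 16 genes were tested, 1 fell and none rose, with a median log2 fold change of 0.05. *Fyn*, a Src-family kinase, fell from 41.3 ± 15.3 to 8.89 ± 4.83 CPM (-2.21 ± 0.42, adjusted p = 0.0147 in edgeR). The most abundant was *Fcer1g*, the signalling gamma chain that other Fc receptors of myeloid cells share, at 557 ± 131 and 792 ± 108 CPM (adjusted p = 0.111). The shared chain was abundant in both groups while the alpha and beta chains were near 0.

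In the IL-33 receptor pathway, 6 of 7 genes were tested and 1 fell, with a median of -0.14. *Traf6*, which encodes an adaptor ligase of IL-1 family and Toll-like receptors, fell from 101 ± 63.3 to 34.8 ± 0.810 CPM (-1.54 ± 0.42, adjusted p = 0.0466 in edgeR). With the replicate block it was not called (adjusted p = 0.0634). It was also the most abundant of the list in BMDC.

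Of 9 genes for KIT ligand and growth factor receptors, all tested, none was called, and the median was 0.03. *Csf2rb*, a receptor chain for GM-CSF, IL-3 and IL-5, was the most abundant at 2134 ± 48.9 and 2755 ± 841 CPM (adjusted p = 0.289 in edgeR). Of 8 genes for amine and mediator storage and synthesis, 7 were tested and none was called, with a median of 0.27. *Srgn*, the granule proteoglycan serglycin, was the most abundant at 300.0 ± 131 and 200.3 ± 66.2 CPM (adjusted p = 0.288). With the replicate block 2 of this list rose, the serotonin transporter gene *Slc6a4* (adjusted p = 0.0402) and the prostaglandin D synthase gene *Hpgds* (adjusted p = 0.0330), named after their values were seen.

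In the list of mast cell and basophil surface molecules and cytokines, 10 of 14 genes were tested and 4 fell, with a median log2 fold change of -0.90. *Cd200r3*, an activating receptor of basophils and mast cells, fell from 12.1 ± 2.59 to 4.67 ± 1.09 CPM (-1.38 ± 0.23, adjusted p = 0.0103 in edgeR). *Itga2b*, an integrin chain also borne by megakaryocytes, fell from 6.64 ± 1.65 to 1.87 ± 0.740 CPM (-1.82 ± 0.33, 0.0124). *Itgb7* fell from 225 ± 11.6 to 121 ± 21.9 CPM (-0.90 ± 0.14, 0.00769), and the activation marker gene *Cd69* from 27.0 ± 4.09 to 12.5 ± 4.84 CPM (-1.11 ± 0.28, 0.0358). With the replicate block 1 more gene of the list fell, the steroid-synthesis gene *Cyp11a1* (log2 fold change -0.93, adjusted p = 0.0458), named after its values were seen. The most abundant, the tetraspanin gene *Cd63*, was at 734 ± 404 and 1160 ± 109 CPM (adjusted p = 0.259). The mast cell receptor genes *Mrgprb1* and *Mrgprb2* had 0 reads in every library.

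Markers of other cell types moved alongside, and their part in the values above was not tested. Over all tested genes 5.91% fell, and 8.13% with the replicate block. All 7 neutrophil precursor markers had a log2 fold change below 0, 4 fell (*Elane*, *Prtn3*, *Ngp* and *Ly6g*) and all 7 fell with the replicate block. Their summed CPM was 14.2 to 112 in BMDC and 1.69 to 11.0 in BMDC-fer, and the highest, *Ngp*, averaged 24.7 ± 21.1 and 1.63 ± 1.88 CPM. Of 3 eosinophil markers tested 2 fell, *Prg2* (-3.72, adjusted p = 0.0127 in edgeR) and *Siglecf* (-0.69, adjusted p = 0.0476, and 0.0740 with the replicate block, where it was not called); the list of 6 summed to 35.0 to 50.4 CPM in BMDC and 25.2 to 31.8 in BMDC-fer, with *Siglecf* the highest and *Prg3* at 0 in BMDC-fer. The other tested eosinophil marker, *Ear6*, went the other way without being called, from 5.64 ± 1.93 to 8.25 ± 3.05 CPM (log2 fold change 0.55, adjusted p = 0.301 in edgeR). In edgeR without the filter, where 2.86% of all genes fell, the eosinophil genes *Epx* (-4.03, adjusted p = 0.0402) and *Il5ra* (-4.69, 0.0446) fell too, named after their values were seen. They had 91 and 40 reads in BMDC against 5 and 1 in BMDC-fer. *Siglecf* was not called in that fit (0.0693). Of 5 progenitor markers 4 had a log2 fold change below 0 and 1 fell, *Flt3*, and *Cd34* fell as well with the replicate block. *Ly6a* went the other way without being called, from 22.7 ± 13.1 to 36.0 ± 30.5 CPM (log2 fold change 0.67, adjusted p = 0.473 in edgeR). The progenitor sums of 31.3 to 111 CPM in BMDC and 17.1 to 98.6 in BMDC-fer overlapped. Dendritic cell markers summed to 6537 to 14669 CPM in BMDC and 3054 to 7198 in BMDC-fer, with *Cd74* the highest; 2 of 7 fell (*Ccr7* and *Dpp4*), and 5 of 7 with the block, which added *Zbtb46*, *Cd74* and *H2-Ab1*. Macrophage markers summed to 2021 to 2320 and 2495 to 2857 CPM, with *Csf1r* the highest and 1 of 6 (*Adgre1*) falling.

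**Figure D4:**
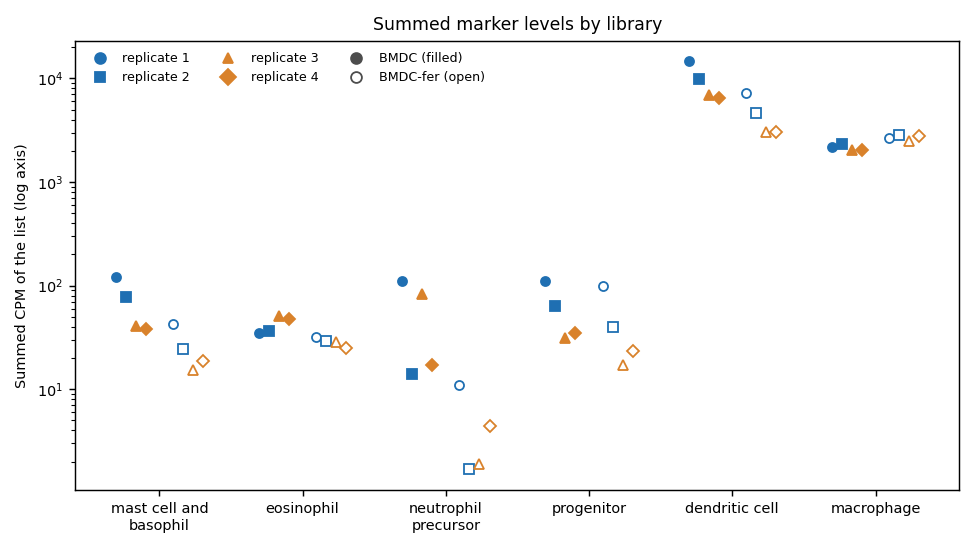
Summed CPM of each marker list on a log axis, with a point for each library, filled for BMDC and open for BMDC-fer and shaped by replicate number. The mast cell and basophil sum is 38.2 to 122 in BMDC and 15.3 to 42.9 in BMDC-fer, and the dendritic cell sum is 6537 to 14669 and 3054 to 7198. Most of the mast cell and basophil sum comes from *Il1rl1*, *Kit* and *Gata2*.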

How the data were processed

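Gene-level read counts of 8 libraries of poly(A)-enriched mouse RNA were analysed. Per the labels and methods, the authors mapped reads with HISAT2, build mm10, and counted them per gene with featureCounts. The deposited values are raw counts. Tool versions, annotation, strand setting, the treatment of multi-mapping reads and the separation of human Jurkat reads are not given in the sources used here. The methods state that counting used both the mouse and human genomes, and only mouse genes were read here.

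The 9 genes and all lists were chosen with earlier results of these data known. Counts were tested with edgeR 4.0.16 in R 4.3.3 (quasi-likelihood, TMM, filterByExpr with a minimum count of 10, Benjamini-Hochberg adjustment over all tested genes); genes failing the filter were taken from the same fit without it. The groups were compared without a block, since the methods state none. Same-numbered libraries deviated together in all 4 pairs (correlations of 0.313 to 0.446), although libraries of replicates 3 and 4 did so across numbers too (0.343 and 0.380), and the fit with a replicate block is given where it changed a member's call. DESeq2 1.42.0, which the authors used, other normalization and filters, each library left out, and replicate pairs alone were alternatives. Exact permutation tests over 70 splits used log2(CPM + 0.05). Named genes were all members, the called genes of each list (up to 6) and its most abundant gene, and for members averaging 1 CPM or more the 3 genes of nearest profile. No replicate pair agreed within sampling noise. Libraries held 39326672 to 50532209 counts, and intervals cover counting error only. Gene positions and exon lengths came from GENCODE M21 (GRCm38). The edgeR group and interaction fits were run on simulated counts of genes that passed the filter, with no difference in level between control replicates. These runs do not cover the replicate block, DESeq2 or the genes at low counts.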

Additional observations from a re-analysis of the deposited data

Results flagged for a closer look

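*Mcpt8* in BMDC-fer replicate 1 stood apart from the other libraries of its group, with 6 reads against 0 in the other 3, so that its gap to the nearest library was 1 as a share of the group's range. *Ms4a2* in BMDC-fer replicate 3 did so with 2 reads against 0, again a share of 1. These were 2 of 16 groups past Dixon's 95% critical value. With 3 libraries at 0 reads the share is 1 whatever the remaining count, so the usual chance rate of about 1 in 20 groups does not hold for them.

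The effect in replicates 3 and 4 minus that in replicates 1 and 2, as a difference of log2 fold changes, passed the edgeR interaction test for *Gata2* (1.74, adjusted p = 0.0264), *Mcpt8* (-5.17, adjusted p = 0.0283) and *Hdc* (-2.66, adjusted p = 0.0308). The first was a smaller fall in replicates 3 and 4, and the other 2 a larger fall. The replicate pairs were seen in the same data, so these p-values are no independent test. The same test passed for 37.8% of all tested genes, and for 22.2% of genes in the fit without the filter, from which *Mcpt8* was taken. All 3 calls were lost in at least 4 of the 8 fits that left out 1 library.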

How the results depend on the processing

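No member's log2 fold change between the groups changed sign under the alternatives that gave a value; DESeq2 gave no adjusted p for *Ms4a2*, *Fcer1a* and *Cma1*, the filter of 1 CPM removed the 4 genes at low counts, and *Cma1* had no reads in replicates 1 and 2. With single libraries left out the log2 fold change ranged from -1.60 to -0.88 for *Gata2*, -2.47 to -1.58 for *Cpa3*, -1.01 to -0.44 for *Kit*, -2.31 to -1.27 for *Hdc* and -3.93 to -1.93 for *Il1rl1*. The number of members called, 0 in edgeR, was 3 with DESeq2, 2 of those above the filter with the replicate block, 6 with DESeq2 and the replicate block together, and 0 to 2 with single libraries left out (1 without BMDC replicate 2 and 2 without BMDC-fer replicate 1, counting *Mcpt8*, which then passed the filter). The 6 were *Gata2*, *Cpa3*, *Mcpt8*, *Kit*, *Hdc* and *Il1rl1*. Replicates 1 and 2 alone gave calls for *Gata2*, *Mcpt8* and *Il1rl1* in edgeR, and replicates 3 and 4 alone for all members but *Gata2* and *Ms4a2*. These fits hold 2 libraries in each group, the pairs were seen in the same data, and the share of all genes called in them is not given here. Genes called over the table, 1445, were 2414 with DESeq2, 2867 with DESeq2 and the block, and 565 to 1440 with single libraries left out (862 without BMDC replicate 3, 879 without BMDC replicate 4, and 797, 867 and 565 without BMDC-fer replicate 2, 3 and 4). Pathway genes called, 8, were 16 with DESeq2 and the block and 4 to 10 with single libraries left out. Genes that differed between replicate pairs, 5829, were 3960 to 5726 with single libraries left out. That difference changed sign in such fits for *Cpa3* (-2.36 to 0.41), *Ms4a2* (-1.17 to 2.97) and *Il1rl1* (-0.063 to 1.58). The cause was not tested. The alternatives of pathway genes and of leaving out libraries in the interaction were chosen after seeing the data. Depth limits *Mcpt8*, *Ms4a2*, *Fcer1a* and *Cma1*, where a few reads decide each value.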

Other observations

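Among lists not set against the members above, the megakaryocyte gene *Pf4*, the only 1 of 6 megakaryocyte and erythroid markers tested, rose from 166 to 421 CPM (log2 fold change 1.35, adjusted p = 0.00751 in edgeR). Of 5 tested T cell and innate lymphoid markers 2 fell, *Lck* (-1.59, adjusted p = 0.0482) and *Gata3* (-1.64, adjusted p = 0.0140). *Cd3g* fell as well with the replicate block (-3.97, adjusted p = 0.00702). Over all tested genes 5.91% fell, and 8.13% with the block. The highest of that list, *Il7r*, was at 111 and 238 CPM (adjusted p = 0.121), and it rose with the replicate block (adjusted p = 0.00543).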
